A study of Homo sapiens with 14 samples.

Results

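The baseline expression of 2 human leukaemia cell lines was read from their guide controls. These are the 2 libraries labelled sgEV of MV4-11 (written with a hyphen in the sample titles, and so here) and the 2 libraries labelled sgEV of EOL-1, which make 4 of the 14 RNA-seq libraries of the study. The study itself depleted EZH2, the histone H3 lysine methyltransferase of Polycomb, or knocked out cMyc. All its cells grew in RPMI medium with serum and were given 1 µg/ml doxycycline for 4 days, so the controls carried the drug too. The sgEV groups are the controls of guide knockouts (of cMyc in MV4-11 and of EZH2 in EOL-1), and the labels do not say what the control vector holds. Members were chosen by a fixed rule: the estimated counts of these 4 libraries on the 13720 gene rows that both tables list, out of 16336 gene rows in either table. Of those rows, 13270 had enough counts to be tested and 450 did not. A further pair of MV4-11 libraries, labelled EV and deposited in another table as the control of an EZH2 hairpin, served to show how far MV4-11 controls differ between tables.

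MV4-11 came from a biphenotypic myelomonocytic leukaemia and carries the KMT2A-AFF1 fusion and an internal tandem duplication of FLT3. Fusions of KMT2A, a histone H3 lysine methyltransferase, are known to keep HOXA genes and their partner MEIS1 active. EOL-1 came from an eosinophilic leukaemia and carries the FIP1L1-PDGFRA fusion, a constitutively active tyrosine kinase made when the stretch of DNA between both genes is lost. EOL-1 also carries a partial tandem duplication of KMT2A.

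The 2 lines were sequenced in separate tables, so line, table, depth and batch cannot be told apart. MV4-11 libraries held 13240538 and 13270184 counts on the shared rows and EOL-1 libraries held 27068926 and 30177764. Levels are given in CPM, counts scaled to library size with TMM factors, for the first and the second library of each line, and differences are log2 of MV4-11 over EOL-1 ± SE, with n = 2 libraries per line. Calls rest on edgeR's quasi-likelihood test with Benjamini-Hochberg adjustment over all genes tested and a threshold of 0.05. Each SE is the size of the log2 difference divided by the square root of that test's F statistic. Where a line holds only a few counts, this SE is narrower than the counting error. Replicates lay close together, with a biological coefficient of variation of 0.0135, so that 10526 of 13270 genes were called (79.3%), 5206 higher (39.2%) and 5320 lower (40.1%) in MV4-11. Calls were thus higher in 49.5% of cases, and in 59.6% when libraries were scaled by size alone, which moved the median of all genes by 0.19. A call alone therefore says little of a group, and members are counted here also by a difference of at least 2-fold, which 2368 genes (17.8%) reached upward and 1532 (11.5%) downward. Within MV4-11, the sgEV libraries differed from the EV libraries in 6851 of 12866 genes (53.2%), of which 1042 by at least 2-fold, so a difference between tables does not need a difference between lines. Each difference was computed again with the EV libraries as the MV4-11 control, and that value ("with the EV control") is printed beside a gene wherever it moved by more than 1.5-fold. Both comparisons use the same EOL-1 libraries. With the EV control, 4710 of 13276 genes tested were called higher in MV4-11 and 4788 lower. By at least 2-fold these were 1748 and 1280. List counts with that control are to be read beside these numbers. Separate cultures are not stated for the replicate libraries, so the p-values rest on a spread that may be technical.

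**Figure D1:**
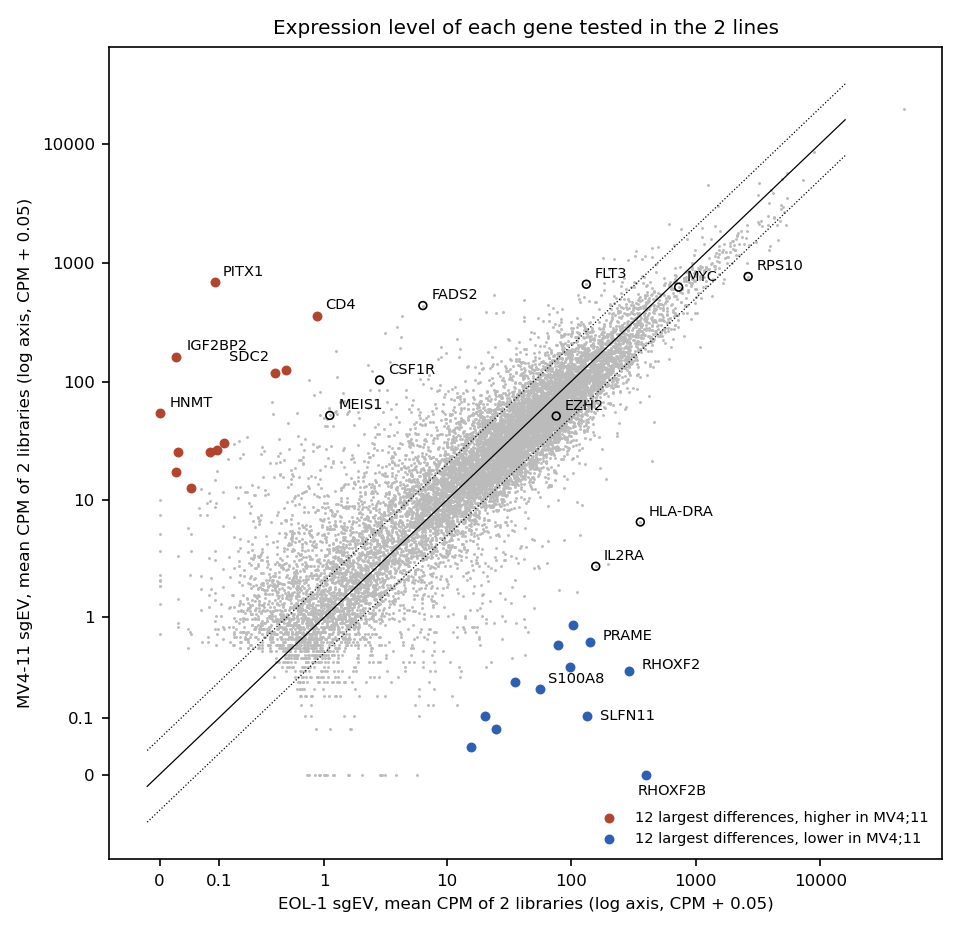
Mean level of each tested gene in EOL-1 (horizontal) and MV4-11 (vertical), in CPM on log axes after adding 0.05; each point is a gene, the solid line marks equal levels and the dotted lines 2-fold. Red and blue points are the 12 largest differences in each direction, and open circles are other named genes; PITX1, IGF2BP2 and HNMT stand at the left edge with almost no count in EOL-1, and RHOXF2B at the bottom with none in MV4-11.

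The genes rearranged in the 2 lines and their neighbours were examined first. FLT3, the receptor tyrosine kinase of early myeloid progenitors, stood at 669.6 and 646 CPM in MV4-11 and 134 and 131 CPM in EOL-1 (log2 difference 2.31 ± 0.02). KMT2A itself stood at 124 and 119 CPM in MV4-11 and 32.5 and 30.1 CPM in EOL-1 (1.96 ± 0.05). Both genes were higher in each MV4-11 library than in either EOL-1 library. AFF1, the fusion partner in MV4-11, was nearly level at 115 and 108 CPM in MV4-11 and 121 and 116 CPM in EOL-1 (-0.08 ± 0.04), a difference that turned to 0.10 when libraries were scaled by size alone. PDGFRA, the receptor kinase of the EOL-1 fusion, had a row in the EOL-1 table only, with 1690 and 1903 counts. FIP1L1, its partner, differed little, at 51.2 and 52.2 CPM in MV4-11 and 60.5 and 58.4 CPM in EOL-1 (-0.20 ± 0.05, and 0.02 with the EV control).

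A pair of genes that lie between FIP1L1 and PDGFRA, in the stretch lost when that fusion forms, were higher in MV4-11. CHIC2 stood at 20.4 and 20.7 CPM in MV4-11 and 7.97 and 7.88 CPM in EOL-1 (1.37 ± 0.09). LNX1 stood at 3.75 and 3.18 CPM in MV4-11 and 1.38 and 1.77 CPM in EOL-1 (1.13 ± 0.26). Several genes on either side went the other way. USP46 stood at 16.4 and 17.8 CPM in MV4-11 and 38.4 and 40.2 CPM in EOL-1 (-1.2 ± 0.07). KIT, the stem cell factor receptor, stood at 2.19 and 1.91 CPM in MV4-11 and 9.79 and 10.3 CPM in EOL-1 (-2.29 ± 0.17, -3.33 with the EV control). SCFD2, SRD5A3, TMEM165 and CLOCK were called lower in MV4-11 as well, with log2 differences of -0.76, -0.55, -1.02 and -0.76, and EXOC1 was called higher by 0.24. Over the 16 tested members of this list, 6 were called higher and 9 lower, with a median of -0.16 against -0.01 over all genes tested. Of the tested members, 11 lie on chromosome 4 or 6, and the median of the others was 0.41.

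Lineage markers were set against the labels next. Eosinophils are known by their granule proteins and the interleukin 5 receptor. Almost all the transcripts that define them had no row in the EOL-1 table, so their level in EOL-1 could not be read. CLC, EPX, PRG3, IL5RA and SIGLEC8 had a row in neither table, and PRG2 and CCR3 had a row in the MV4-11 table only, with at most 10 counts in a library. The defining genes left were the granule ribonucleases. RNASE2 stood at 56.6 and 53.7 CPM in MV4-11 and 38.4 and 38.5 CPM in EOL-1 (0.52 ± 0.05). RNASE3 stood at 10.1 and 11.0 CPM in MV4-11 and 7.89 and 6.72 CPM in EOL-1 (0.54 ± 0.12), so neither was higher in the line of eosinophilic origin. Of the 33 eosinophil and basophil genes listed, 12 were tested, 9 were called higher in MV4-11 (6 by at least 2-fold) and 3 lower (1 by at least 2-fold). LTC4S, the leukotriene C4 synthase, stood at 20.8 and 20.5 CPM in MV4-11 and 0.513 and 0.813 CPM in EOL-1 (4.93 ± 0.17, 3.11 with the EV control). FCER1G, the shared gamma chain of Fc receptors, stood at 77.2 and 82.5 CPM in MV4-11 and 1.26 and 1.63 CPM in EOL-1 (5.77 ± 0.10, 3.45 with the EV control). This list's median was 1.59, and with the EV control it was -0.28 over 10 genes, with 5 called in each direction.

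Monocyte genes divided between the lines. CSF1R, the receptor of macrophage colony-stimulating factor, stood at 104 and 102 CPM in MV4-11 and 2.45 and 3.29 CPM in EOL-1 (5.15 ± 0.08, 4.06 with the EV control). FCGR1A, the high-affinity IgG receptor, stood at 80.4 and 84.0 CPM in MV4-11 and 0.986 and 0.848 CPM in EOL-1 (6.48 ± 0.10). ITGAX, the integrin CD11c, stood at 22.2 and 21.8 CPM in MV4-11 and 0.710 and 0.566 CPM in EOL-1 (5.1 ± 0.16, 1.5 with the EV control). TLR2 stood at 143 and 143 CPM in MV4-11 and 77.9 and 76.9 CPM in EOL-1 (0.89 ± 0.03). These 4 genes were higher in every MV4-11 library. Calprotectin went the other way: S100A8 stood at 0.212 and 0.212 CPM in MV4-11 and 57.4 and 54.4 CPM in EOL-1 (-8.0 ± 0.16). S100A9, its partner subunit, stood at 0.0707 and 0.0707 CPM in MV4-11 and 24.9 and 25.6 CPM in EOL-1. With 1 count in each MV4-11 library, the ratio of S100A9 in EOL-1 to MV4-11 was 357 (95% counting interval 98.6 to 2949), and its log2 difference was -8.36 with sgEV and -7.04 with EV. CD86, the T cell costimulator, was at 3.39 and 3.61 CPM in MV4-11 and 17.1 and 16.3 CPM in EOL-1 (-2.25 ± 0.13, -3.54 with the EV control). TLR4, the receptor of lipopolysaccharide, stood at 13.3 and 10.3 CPM in MV4-11 and 30.3 and 32.0 CPM in EOL-1 (-1.4 ± 0.09).

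General myeloid markers differed far less than these. LYZ, lysozyme, stood at 149.6 and 149 CPM in MV4-11 and 218 and 210.4 CPM in EOL-1 (-0.52 ± 0.03). CD68, a lysosomal protein of macrophages, stood at 91.9 and 82.7 CPM in MV4-11 and 63.7 and 61.8 CPM in EOL-1 (0.48 ± 0.05, -0.72 with the EV control). ITGAM, the integrin CD11b, was low at 2.83 and 3.75 CPM in MV4-11 and 2.29 and 2.83 CPM in EOL-1 (0.36 ± 0.23, -0.69 with the EV control) and was not called with sgEV (adjusted p = 0.164 in edgeR's test). CD14 and FCN1 had a row in neither table. Over 33 tested monocyte and macrophage genes, 21 were called higher (15 by at least 2-fold) and 10 lower (6 by at least 2-fold) in MV4-11, with a median of 0.89; with the EV control, 15 were called higher and 13 lower of 32, with a median of 0.09.

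Granule genes of early neutrophil and monocyte precursors differed widely between the lines. PRTN3, proteinase 3, stood at 349.5 and 359 CPM in MV4-11 and 4.34 and 4.45 CPM in EOL-1 (6.33 ± 0.05, 7.34 with the EV control). CTSG, cathepsin G, stood at 179 and 180.1 CPM in MV4-11 and 1.26 and 1.24 CPM in EOL-1 (7.16 ± 0.07, 8.33 with the EV control). AZU1, azurocidin, which is PRTN3's neighbour in the genome, stood at 321 and 328 CPM in MV4-11 and 57.1 and 62.3 CPM in EOL-1 (2.44 ± 0.03). ELANE, neutrophil elastase, the other neighbour, had a row in the MV4-11 table only, with 2825 and 2938 counts. MS4A3, a membrane gene of granulocyte and monocyte progenitors, stood at 84.9 and 84.8 CPM in MV4-11 and 3.24 and 2.40 CPM in EOL-1 (4.92 ± 0.08). SRGN, the granule proteoglycan serglycin, stood at 1089 and 1091 CPM in MV4-11 and 179.9 and 179 CPM in EOL-1 (2.60 ± 0.02). The tested genes among these were higher in MV4-11 with either control.

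MPO, myeloperoxidase, did not follow its fellow granule genes. It stood at 7.07 and 5.66 CPM in MV4-11 and 19.7 and 20.4 CPM in EOL-1 (-1.66 ± 0.11, -0.82 with the EV control) and was thus higher in EOL-1. IGLL1, a surrogate light chain also made by myeloid progenitors, stood at 4.03 and 5.44 CPM in MV4-11 and 49.6 and 47.9 CPM in EOL-1 (-3.36 ± 0.09, -0.68 with the EV control). NKG7, a granule protein of cytotoxic cells, stood at 54.1 and 59.0 CPM in MV4-11 and 121 and 118 CPM in EOL-1 (-1.08 ± 0.04). SOX4, a transcription factor of progenitors, on the stem cell list and chromosome 6, stood at 152 and 144 CPM in MV4-11 and 287 and 279 CPM in EOL-1 (-0.94 ± 0.03). Of 13 tested stem and progenitor genes, 7 were called higher and 6 lower, with a median of 0.31 (-0.78 with the EV control). Of 13 tested granule genes, 7 were at least 2-fold higher in MV4-11 and 5 at least 2-fold lower.

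Genes that mark other cell types were mostly below the count filter or without a row. NKG7 was the 1 of 15 T and NK cell markers that was tested, and 2 of 10 B cell, 3 of 22 erythroid and megakaryocyte, 1 of 9 epithelial and 2 of 12 fibroblast and endothelial markers were tested. PECAM1, the adhesion receptor CD31 of endothelium and myeloid cells, stood at 174 and 172 CPM in MV4-11 and 9.71 and 10.2 CPM in EOL-1 (4.11 ± 0.05). ITGA2B, the platelet integrin, stood at 24.5 and 21.2 CPM in MV4-11 and 0.237 and 0.106 CPM in EOL-1 (7.04 ± 0.22, 2.43 with the EV control).

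**Figure D2:**
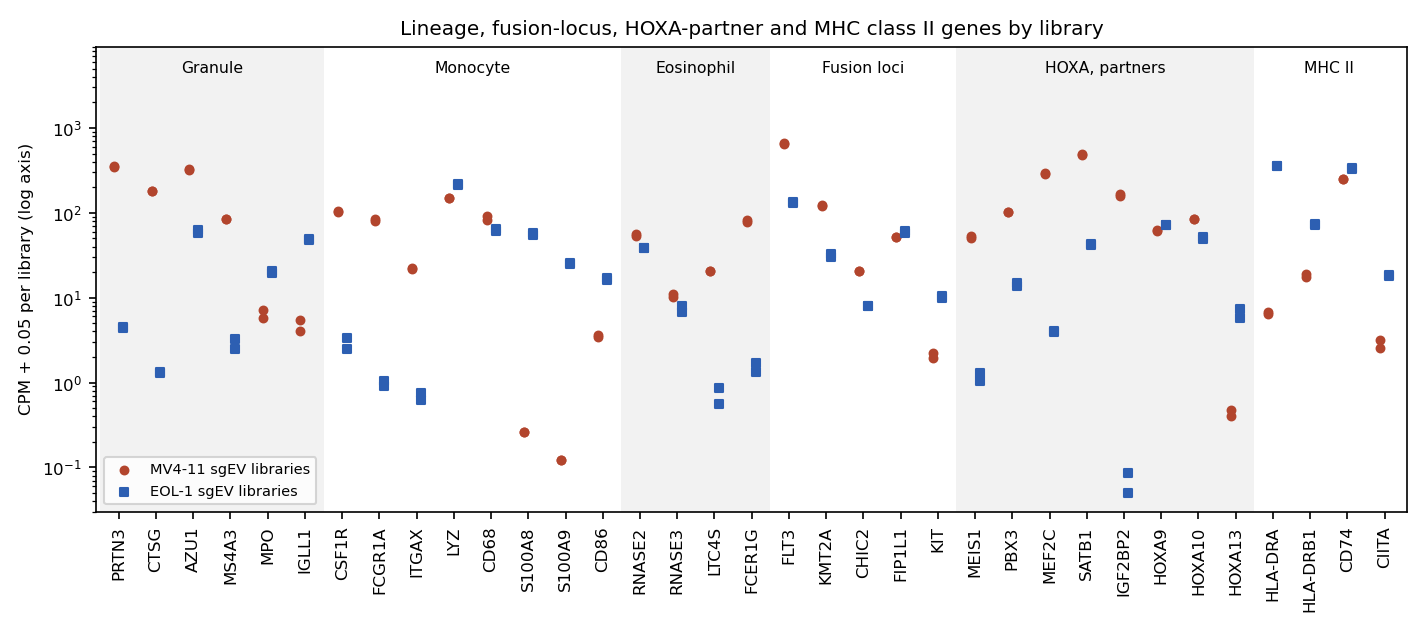
Level of lineage, fusion-locus, HOXA-partner and MHC class II genes in each library, in CPM plus 0.05 on a log axis; red circles are the 2 MV4-11 libraries and blue squares the 2 EOL-1 libraries. PRTN3, CTSG, CSF1R, MEIS1 and MEF2C stand far higher in MV4-11, S100A8, S100A9 and HLA-DRA far higher in EOL-1, and HOXA9, LYZ and FIP1L1 within 2-fold.

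HOXA9 and HOXA10 were close in the 2 lines, while the cofactors MEIS1 and PBX3 were higher in MV4-11. HOXA9, the homeobox gene of the leukaemic progenitor programme, stood at 62.0 and 61.4 CPM in MV4-11 and 72.7 and 72.7 CPM in EOL-1 (-0.24 ± 0.04). HOXA10 stood at 84.4 and 85.3 CPM in MV4-11 and 49.0 and 51.4 CPM in EOL-1 (0.76 ± 0.04). Read with the sgEV libraries, each of these genes differed by less than 2-fold between the lines. MEIS1, the cofactor that binds DNA beside HOXA9, stood at 53.8 and 50.1 CPM in MV4-11 and 0.986 and 1.24 CPM in EOL-1 (5.53 ± 0.11, adjusted p = 3.8e-23). PBX3, the other cofactor, stood at 101 and 102 CPM in MV4-11 and 13.6 and 14.8 CPM in EOL-1 (2.84 ± 0.05). MEF2C, a transcription factor of myeloid and lymphoid progenitors, stood at 292 and 286 CPM in MV4-11 and 3.91 and 4.03 CPM in EOL-1 (6.18 ± 0.05). SATB1, a chromatin organiser, stood at 489 and 475 CPM in MV4-11 and 41.2 and 43.3 CPM in EOL-1 (3.51 ± 0.03).

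HOXA13, at the end of the cluster, was low in both lines and higher in EOL-1. It stood at 0.424 and 0.353 CPM in MV4-11 and 7.30 and 5.66 CPM in EOL-1 (-4.03 ± 0.29, -2.30 with the EV control). HOXA3, HOXA5, HOXA6 and HOXA7 had rows in the EOL-1 table only, with 23 and 20, 31 and 39, 14 and 13 and 126 and 148 counts. IGF2BP2, an RNA-binding protein of the fetal type, was present in MV4-11 at 166 and 159 CPM and held 1 count in EOL-1 in all, a ratio of 8715 (95% counting interval 1563 to 344311). Its paralog IGF2BP3 had a row in the EOL-1 table only, with 943 and 1069 counts. Among the 17 tested genes of this list, 9 were at least 2-fold higher in MV4-11 and 3 at least 2-fold lower.

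Core myeloid transcription factors were shared. SPI1 (PU.1), the factor that all myeloid cells need, stood at 240.4 and 244 CPM in MV4-11 and 144 and 145 CPM in EOL-1 (0.74 ± 0.03). CEBPA, the granulocyte and monocyte factor, stood at 376 and 378 CPM in MV4-11 and 333 and 350.4 CPM in EOL-1 (0.14 ± 0.02). IRF8, the monocyte and dendritic cell factor, stood at 339 and 340.2 CPM in MV4-11 and 330.2 and 327 CPM in EOL-1 (0.05 ± 0.02). None of these reached 2-fold with either control, and CEBPA turned to -0.09 with the EV control. LMO2, a stem cell adaptor of GATA and TAL1 factors, was higher in MV4-11 at 332 and 341 CPM in MV4-11 and 81.7 and 84.3 CPM in EOL-1 (2.02 ± 0.03). HHEX stood at 28.5 and 30.05 CPM in MV4-11 and 5.37 and 5.41 CPM in EOL-1 (2.44 ± 0.09). NFE2, the erythroid and megakaryocyte factor, was higher in EOL-1 at 10.1 and 10.2 CPM in MV4-11 and 76.8 and 79.4 CPM in EOL-1 (-2.94 ± 0.07), as was IKZF2 (Helios) at 2.19 and 3.11 CPM in MV4-11 and 50.4 and 50.9 CPM in EOL-1 (-4.25 ± 0.10, -3.56 with the EV control).

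GATA2 and TCF4 depended on which MV4-11 control was read. GATA2, the mast cell and stem cell factor, stood at 21.1 and 21.1 CPM in MV4-11 and 1.62 and 1.91 CPM in EOL-1 (3.57 ± 0.13, -2.01 with the EV control). TCF4, an E protein, stood at 82.2 and 78.8 CPM in MV4-11 and 12.3 and 12.2 CPM in EOL-1 (2.72 ± 0.06, -0.07 with the EV control). MLLT3, a partner of KMT2A fusions and part of the super elongation complex, was higher in EOL-1 at 3.75 and 2.55 CPM in MV4-11 and 29.8 and 28.9 CPM in EOL-1 (-3.22 ± 0.12, -2.15 with the EV control). Of 50 tested myeloid transcription factors, 25 were at least 2-fold higher in MV4-11 and 4 at least 2-fold lower (16 and 7 of 49 with the EV control).

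MHC class II molecules present peptides to CD4 T cells, and their genes are switched on by CIITA. CIITA stood at 3.11 and 2.47 CPM in MV4-11 and 18.3 and 18.0 CPM in EOL-1 (-2.70 ± 0.13). HLA-DRA stood at 6.43 and 6.72 CPM in MV4-11 and 360.2 and 360.1 CPM in EOL-1 (-5.77 ± 0.05, -6.85 with the EV control, adjusted p = 3.4e-30). HLA-DRB1 stood at 18.9 and 17.5 CPM in MV4-11 and 72.8 and 73.3 CPM in EOL-1 (-2.01 ± 0.06, -2.66 with the EV control). Every EOL-1 library was above every MV4-11 library for these genes. CD74, the invariant chain, differed little at 249.99 and 247 CPM in MV4-11 and 333 and 327 CPM in EOL-1 (-0.41 ± 0.02), and HLA-DPA1, at 0.707 and 0.707 CPM in MV4-11 and 0.868 and 0.848 CPM in EOL-1, was not called (adjusted p = 0.551 in edgeR's test). HLA-DQB1 was higher in MV4-11, at 6.15 and 5.94 CPM in MV4-11 and 0.0789 and 0.141 CPM in EOL-1 (5.68 ± 0.36), and was not tested with the EV control. HLA-DMB, HLA-DPB1 and HLA-DQA1 had rows in the EOL-1 table only, with 76 and 95, 55 and 75 and 10 and 19 counts. A further 3 of the 20 listed genes had a row in neither table. Of 14 tested class II pathway genes, 8 were called lower in MV4-11, 6 of them by at least 2-fold (4 on chromosome 6). The 4 called higher were HLA-DQB1 and, by less than 2-fold, IFI30 (0.74 ± 0.08, -0.97 with the EV control), RFX5 (0.18 ± 0.05) and RFXANK (0.40 ± 0.04). The median was -0.60, and -2.25 with the EV control, where 10 of 13 were called lower. HLA genes have near-identical copies and differ between people, so reads may be split or lost.

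Class I pathway genes were mostly lower in MV4-11, among them genes that make, carry and trim peptides. TAP1, a subunit of the peptide transporter, stood at 22.6 and 22.98 CPM in MV4-11 and 74.0 and 76.0 CPM in EOL-1 (-1.72 ± 0.05). PSMB8, an immunoproteasome subunit, stood at 66.8 and 66.6 CPM in MV4-11 and 198 and 197 CPM in EOL-1 (-1.57 ± 0.03). ERAP2, which trims peptides, was at 15.7 and 15.9 CPM in MV4-11 and 49.0 and 49.1 CPM in EOL-1 (-1.64 ± 0.06). HLA-C stood at 364 and 359 CPM in MV4-11 and 680.5 and 682 CPM in EOL-1 (-0.91 ± 0.02). HLA-F, a nonclassical class I gene, had the widest gap and ran the other way, at 3.46 and 2.40 CPM in MV4-11 and 0.355 and 0.0707 CPM in EOL-1 (3.79 ± 0.47, 4.50 with the EV control). Of 22 tested class I pathway genes, 15 were called lower in MV4-11 (4 by at least 2-fold) and 5 higher (1 by at least 2-fold), and 11 of the 22 lie on chromosome 6.

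Interferon-stimulated genes were mostly higher in MV4-11, while the antigen presentation genes were mostly lower. OAS2, an oligoadenylate synthetase that senses double-stranded RNA, stood at 17.1 and 18.3 CPM in MV4-11 and 0.118 and 0.0707 CPM in EOL-1 (7.48 ± 0.25, 5.95 with the EV control). XAF1, an apoptosis factor, was at 82.4 and 83.3 CPM in MV4-11 and 8.09 and 8.59 CPM in EOL-1 (3.31 ± 0.06, 2.54 with the EV control). IFI6 stood at 20.3 and 22.98 CPM in MV4-11 and 2.33 and 1.98 CPM in EOL-1 (3.33 ± 0.13, 1.47 with the EV control). STAT2, the signal transducer of type I interferon, stood at 62.9 and 57.1 CPM in MV4-11 and 12.7 and 13.5 CPM in EOL-1 (2.19 ± 0.07, 1.51 with the EV control). OAS1, a relative of OAS2, held 2 counts in EOL-1 in all, a ratio of 140.3 (95% counting interval 38.2 to 1169). Its log2 difference was 6.91 with sgEV and 4.18 with EV. HERC5, the ligase that attaches ISG15, which lies on chromosome 4, stood at 4.31 and 3.89 CPM in MV4-11 and 39.4 and 40.1 CPM in EOL-1 (-3.28 ± 0.10). Over 38 tested genes, 27 were called higher (21 by at least 2-fold) and 9 lower (2 by at least 2-fold), with a median of 1.245; with the EV control, 19 were higher and 12 lower of 35, with a median of 0.63.

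Promoters of this list are shown because a short motif known from interferon-stimulated genes could be looked for in them. The interferon-stimulated response element was searched as GAAANNGAAA on both strands of 300 bases (250 before to 50 after the gene start; RefSeq sequences of GRCh38.p14, matched by symbol). It was found in 15 of the 28 tested members with a promoter sequence, against 2.96% of the promoters of all genes tested that had one. The 4 sequences below run 5′ to 3′ in the direction of the gene, with every match in capitals, where TTTCNNTTTC is the same motif on the opposite strand. They are those of IFI6 (chr1:27672143-27672442, minus strand), IFIT3 (chr10:89327747-89328046, plus strand) and IFIH1 (chr2:162318635-162318934, minus strand), higher in MV4-11 by 3.33, 2.53 and 2.10, and of HERC5 (chr4:88456869-88457168, plus strand), the member that was lowest there.
IFI6: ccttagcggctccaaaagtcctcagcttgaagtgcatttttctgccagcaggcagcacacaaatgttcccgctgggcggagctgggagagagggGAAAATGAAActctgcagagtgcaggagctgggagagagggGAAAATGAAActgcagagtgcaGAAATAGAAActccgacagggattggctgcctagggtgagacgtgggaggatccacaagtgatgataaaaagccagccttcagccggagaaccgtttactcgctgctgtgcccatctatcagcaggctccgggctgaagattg
IFIT3: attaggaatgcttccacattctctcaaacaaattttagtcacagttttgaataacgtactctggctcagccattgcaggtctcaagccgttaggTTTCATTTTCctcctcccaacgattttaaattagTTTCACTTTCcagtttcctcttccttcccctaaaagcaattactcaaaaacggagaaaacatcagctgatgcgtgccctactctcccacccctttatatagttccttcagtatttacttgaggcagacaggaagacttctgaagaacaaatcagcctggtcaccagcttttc
IFIH1: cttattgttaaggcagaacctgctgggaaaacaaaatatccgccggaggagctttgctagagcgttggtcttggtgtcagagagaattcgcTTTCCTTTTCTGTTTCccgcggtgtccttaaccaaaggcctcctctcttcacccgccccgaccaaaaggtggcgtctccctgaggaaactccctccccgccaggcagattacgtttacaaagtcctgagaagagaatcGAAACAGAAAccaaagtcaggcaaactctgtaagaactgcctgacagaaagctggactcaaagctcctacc
HERC5: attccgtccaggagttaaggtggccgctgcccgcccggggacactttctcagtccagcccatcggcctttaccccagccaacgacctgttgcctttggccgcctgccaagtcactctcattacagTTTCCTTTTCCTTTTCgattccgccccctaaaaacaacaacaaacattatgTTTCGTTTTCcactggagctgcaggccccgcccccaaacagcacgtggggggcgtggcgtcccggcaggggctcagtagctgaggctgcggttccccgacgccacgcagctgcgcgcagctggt
IFI6, IFIH1 and HERC5 hold 3 matches each and IFIT3 holds 2, and some of those in IFIH1 and HERC5 overlap. A match is a run of letters and says nothing of use, and the motif was present both in members that were higher and in the member that was lowest. The sterol regulatory element TCACNCCAC was searched in the same way in the cholesterol genes described below and matched 1 of 24 promoters, that of SREBF2, against 0.967% of the promoters of genes tested.

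Surface receptors gave some of the widest gaps. CD4, the coreceptor of T helper cells and a monocyte marker, stood at 357 and 361 CPM in MV4-11 and 0.789 and 0.954 CPM in EOL-1 (8.67 ± 0.06). CD37, a tetraspanin of mature leukocytes, stood at 258 and 258 CPM in MV4-11 and 3.0 and 3.36 CPM in EOL-1 (6.34 ± 0.06, 5.09 with the EV control). CD70, the ligand of CD27, stood at 51.7 and 54.9 CPM in MV4-11 and 0.355 and 0.353 CPM in EOL-1 (7.21 ± 0.13, 6.10 with the EV control). CD300A, an inhibitory receptor, stood at 45.2 and 44.6 CPM in MV4-11 and 0.434 and 0.530 CPM in EOL-1 (6.52 ± 0.13, 4.37 with the EV control). Higher in EOL-1 was IL2RA, the interleukin 2 receptor alpha chain CD25, at 2.90 and 2.62 CPM in MV4-11 and 158 and 158 CPM in EOL-1 (-5.84 ± 0.07, -9.68 with the EV control). PTPRC, the common leukocyte antigen CD45, was within 2-fold at 217 and 225 CPM in MV4-11 and 195 and 195 CPM in EOL-1 (0.18 ± 0.03, -0.43 with the EV control). CD33, the myeloid antigen, stood at 85.9 and 89.8 CPM in MV4-11 and 69.1 and 69.7 CPM in EOL-1 (0.34 ± 0.04, -0.09 with the EV control). Both thus turned to lower in MV4-11 with that control.

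Of the 38 tested surface antigens used in leukaemia typing, 17 were at least 2-fold higher in MV4-11 and 3 at least 2-fold lower (14 and 5 of 37 with the EV control). The tested immunoglobulin-like receptors and lectins leaned almost wholly to MV4-11. Of 24 tested, 23 were called higher there, 14 by at least 2-fold, and none was called lower (19 higher and none lower of 23 with the EV control). A further 8 listed members had a row in the MV4-11 table only and 2 in the EOL-1 table only. LILRB4, an inhibitory receptor of monocytes, stood at 174 and 180.4 CPM in MV4-11 and 22.3 and 20.4 CPM in EOL-1 (3.06 ± 0.04, 2.23 with the EV control). LILRB1 stood at 13.7 and 11.7 CPM in MV4-11 and 0.908 and 0.954 CPM in EOL-1 (3.76 ± 0.19). SIRPB1 stood at 16.8 and 14.1 CPM in MV4-11 and 0.986 and 0.460 CPM in EOL-1 (4.43 ± 0.21, 3.50 with the EV control). The list's median was 2.06 with the sgEV libraries, the highest among the lists with at least 10 members tested. With the EV control it was 1.15, below the 1.53 of the early myeloid granule list. Among receptors of chemokines and lipid mediators, 14 of 26 were at least 2-fold higher in MV4-11 and 4 at least 2-fold lower. S1PR3, a sphingosine 1-phosphate receptor, stood at 42.6 and 42.9 CPM in MV4-11 and 1.26 and 0.848 CPM in EOL-1 (5.35 ± 0.12), and its relative S1PR4 had a row in the EOL-1 table only, with 3104 and 3771 counts. PTGIR, the prostacyclin receptor, stood at 11.7 and 11.5 CPM in MV4-11 and 0.0789 and 0.0707 CPM in EOL-1 (7.17 ± 0.29, 6.05 with the EV control). P2RX7, an ATP-gated channel, stood at 25.5 and 24.2 CPM in MV4-11 and 0.395 and 0.424 CPM in EOL-1 (5.90 ± 0.17, 3.72 with the EV control).

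Cytokine and growth factor receptors were called higher in MV4-11 in 30 cases of 42 and lower in 10. CSF3R, the receptor of granulocyte colony-stimulating factor, stood at 52.0 and 48.9 CPM in MV4-11 and 4.14 and 3.68 CPM in EOL-1 (3.69 ± 0.09, 2.89 with the EV control). TGFBR1 stood at 139 and 147 CPM in MV4-11 and 18.8 and 18.9 CPM in EOL-1 (2.92 ± 0.05, 1.96 with the EV control). By at least 2-fold, 17 were higher in MV4-11 and 5 lower (11 and 8 with the EV control). IL13RA1, an interleukin 13 receptor chain, stood at 36.3 and 35.1 CPM in MV4-11 and 3.83 and 3.64 CPM in EOL-1 (3.26 ± 0.10, 2.39 with the EV control). IL10RA, the interleukin 10 receptor, stood at 21.3 and 20.6 CPM in MV4-11 and 1.93 and 2.65 CPM in EOL-1 (3.18 ± 0.13, 1.95 with the EV control). Of the ligands, CCL5, a T cell and monocyte chemokine, stood at 122 and 122 CPM in MV4-11 and 2.68 and 2.26 CPM in EOL-1 (5.63 ± 0.07, 2.61 with the EV control). TNF stood at 40.9 and 38.4 CPM in MV4-11 and 2.96 and 3.25 CPM in EOL-1 (3.67 ± 0.10, 2.31 with the EV control). LTB, lymphotoxin beta, was higher in EOL-1, at 3.75 and 3.96 CPM in MV4-11 and 13.5 and 14.2 CPM in EOL-1 (-1.85 ± 0.13, -2.85 with the EV control). Of 22 tested chemokines and cytokines, 10 were at least 2-fold higher in MV4-11 and 4 at least 2-fold lower (4 and 6 of 21 with the EV control).

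Active FLT3 and PDGFRA kinases are both known to signal through STAT5 and MAP kinase, and the genes read as their outputs were mixed. CCND2, cyclin D2, stood at 48.1 and 51.6 CPM in MV4-11 and 0.829 and 1.17 CPM in EOL-1 (5.62 ± 0.12, 4.80 with the EV control). FOS stood at 136 and 136 CPM in MV4-11 and 22.8 and 23.9 CPM in EOL-1 (2.54 ± 0.04, 1.06 with the EV control). EGR1 stood at 63.3 and 66.0 CPM in MV4-11 and 12.5 and 12.7 CPM in EOL-1 (2.36 ± 0.06, 0.39 with the EV control). Lower in MV4-11 was DUSP2, a MAP kinase phosphatase, at 10.8 and 9.12 CPM in MV4-11 and 43.0 and 46.7 CPM in EOL-1 (-2.17 ± 0.08). PIM1, a kinase induced by STAT5, stood at 243 and 237 CPM in MV4-11 and 799 and 802 CPM in EOL-1 (-1.74 ± 0.02, -3.60 with the EV control). SOCS1, a feedback inhibitor of JAK kinases, stood at 8.63 and 8.41 CPM in MV4-11 and 28.3 and 30.1 CPM in EOL-1 (-1.78 ± 0.09, -3.38 with the EV control). CISH, another such inhibitor, stood at 57.4 and 51.8 CPM in MV4-11 and 112 and 112 CPM in EOL-1 (-1.04 ± 0.04). MYC was near level at 620.1 and 623 CPM in MV4-11 and 727 and 734 CPM in EOL-1 (-0.23 ± 0.02). Over 42 tested genes, 12 were at least 2-fold higher and 7 at least 2-fold lower, with a median of 0.40, and the median turned to -0.39 with the EV control. PIM1 lies on chromosome 6.

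Genes of cholesterol and fatty acid synthesis stood higher in MV4-11 nearly throughout. Of 29 tested, 28 were called higher in MV4-11, 23 of them by at least 2-fold, and PMVK was the one called lower (-0.75 ± 0.07). FADS2, the fatty acid delta-6 desaturase, stood at 432 and 439 CPM in MV4-11 and 6.43 and 6.43 CPM in EOL-1 (6.08 ± 0.04, 5.26 with the EV control, adjusted p = 1.9e-31). FADS1, its neighbour in the genome, stood at 161 and 162 CPM in MV4-11 and 12.3 and 12.8 CPM in EOL-1 (3.69 ± 0.05). HMGCS1, which makes HMG-CoA, stood at 227 and 219 CPM in MV4-11 and 32.1 and 31.6 CPM in EOL-1 (2.81 ± 0.04, 1.51 with the EV control). SREBF1, a master regulator of lipid synthesis, stood at 158 and 162 CPM in MV4-11 and 22.1 and 23.9 CPM in EOL-1 (2.79 ± 0.04). The list's median was 1.52 against -0.01 over all genes tested. With the EV control, 26 of 29 were called higher, 10 by at least 2-fold, with a median of 0.75.

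Glycolysis and hypoxia genes showed no common direction. ALDOC, a brain-type aldolase, stood at 146 and 148 CPM in MV4-11 and 3.35 and 3.57 CPM in EOL-1 (5.40 ± 0.06, 2.24 with the EV control). SLC16A3, the lactate exporter MCT4, stood at 229 and 223 CPM in MV4-11 and 11.96 and 12.4 CPM in EOL-1 (4.21 ± 0.05, 3.12 with the EV control). PFKM, the muscle-type phosphofructokinase, was lower in MV4-11 at 1.70 and 1.48 CPM in MV4-11 and 20.7 and 18.5 CPM in EOL-1 (-3.61 ± 0.15). ENO2 and BNIP3, both induced by hypoxia, were higher by 3.21 and 1.87 with sgEV and stood at -0.07 and -0.20 with the EV control, so their differences belong to one control only. PFKFB4, which tunes phosphofructokinase, stood at 39.7 and 42.9 CPM in MV4-11 and 2.68 and 2.58 CPM in EOL-1 (3.97 ± 0.10, 2.30 with the EV control). P4HA1, a collagen prolyl hydroxylase, stood at 127 and 126 CPM in MV4-11 and 19.7 and 18.7 CPM in EOL-1 (2.72 ± 0.05, 1.34 with the EV control). Of 30 tested genes, 10 were at least 2-fold higher and 4 at least 2-fold lower, against 5 and 7 with the EV control.

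DNA replication genes stood lower in MV4-11 than in EOL-1. MCM3, a subunit of the replicative helicase, stood at 156 and 151 CPM in MV4-11 and 618 and 612 CPM in EOL-1 (-2.0 ± 0.02, -1.21 with the EV control). TYMS, thymidylate synthase, stood at 145 and 150.2 CPM in MV4-11 and 497 and 498 CPM in EOL-1 (-1.75 ± 0.02, -1.02 with the EV control). GINS2, part of the same helicase complex, stood at 26.6 and 27.9 CPM in MV4-11 and 83.9 and 77.8 CPM in EOL-1 (-1.57 ± 0.06, -0.85 with the EV control). Of 47 tested genes 44 were called lower, 20 by at least 2-fold, with a median of -0.88; with the EV control 33 were called lower (3 by at least 2-fold) and 10 higher, with a median of -0.28. Mitosis genes went from 36 of 43 called lower (median -0.45) to 14 lower and 18 higher (median 0.05) with the EV control. CCNA2, cyclin A2, and MAD2L1, a spindle checkpoint protein, were lower in MV4-11 with both controls. CCNA2 differed by -1.73 with sgEV and -1.10 with EV, and MAD2L1 by -1.92 and -1.19. CENPF, a kinetochore protein, went the other way at 180.1 and 172 CPM in MV4-11 and 62.9 and 65.1 CPM in EOL-1 (1.46 ± 0.04). MCM3 lies on chromosome 6, and CCNA2 and MAD2L1 lie on chromosome 4, both of which stood lower as a whole in MV4-11 (as given with the order of genes).

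Cell cycle inhibitors were read beside them. CDKN2C, the CDK4 and CDK6 inhibitor p18, stood at 34.1 and 35.6 CPM in MV4-11 and 234 and 237 CPM in EOL-1 (-2.76 ± 0.04). CDKN1A, the p53 target p21, stood at 193 and 203 CPM in MV4-11 and 55.6 and 57.4 CPM in EOL-1 (1.81 ± 0.04, -0.28 with the EV control, adjusted p = 0.00029 there), so its direction turned with the control. BTG2, another p53 target, stood at 58.2 and 60.4 CPM in MV4-11 and 5.21 and 4.77 CPM in EOL-1 (3.57 ± 0.08, 1.24 with the EV control). CYFIP2, also a p53 target, stood at 8.98 and 10.3 CPM in MV4-11 and 112 and 110.2 CPM in EOL-1 (-3.53 ± 0.06, -5.82 with the EV control). Of 35 tested cell cycle inhibitors and p53 targets, 18 were called higher and 12 lower, against 10 and 18 with the EV control.

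BCL2-family genes, which set the threshold of apoptosis, differed modestly. BCL2, the survival protein, stood at 238 and 238 CPM in MV4-11 and 132 and 134 CPM in EOL-1 (0.84 ± 0.03, 0.24 with the EV control). BMF, a proapoptotic member, stood at 102 and 97.4 CPM in MV4-11 and 34.4 and 36.1 CPM in EOL-1 (1.5 ± 0.05, 0.04 with the EV control). BBC3, the proapoptotic PUMA, stood at 36.0 and 32.0 CPM in MV4-11 and 19.3 and 18.6 CPM in EOL-1 (0.84 ± 0.07, -0.41 with the EV control). BAK1, a pore-forming effector on chromosome 6, stood at 34.8 and 35.8 CPM in MV4-11 and 61.7 and 61.0 CPM in EOL-1 (-0.80 ± 0.05). Of 17 tested, 10 were called higher and 5 lower in MV4-11 (3 and 0 by at least 2-fold), and 5 and 6 with the EV control. Innate sensing genes were mixed, with 10 of 20 called higher and 5 lower (9 and 10 with the EV control). GSDMD, the pore of pyroptosis, stood at 70.0 and 67.0 CPM in MV4-11 and 14.3 and 13.5 CPM in EOL-1 (2.30 ± 0.06). CASP1, its protease, stood at 36.3 and 37.0 CPM in MV4-11 and 14.3 and 12.9 CPM in EOL-1 (1.44 ± 0.07). MYD88, the adaptor of Toll-like receptors, stood at 41.6 and 42.8 CPM in MV4-11 and 88.0 and 82.7 CPM in EOL-1 (-1.02 ± 0.05).

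EZH2 itself was at 52.95 and 49.8 CPM in MV4-11 and 76.3 and 76.0 CPM in EOL-1 (-0.57 ± 0.04). Of 58 tested Polycomb, KMT2 and H3K27 demethylase genes, 25 were called in each direction, 10 by at least 2-fold upward and 5 downward (against 17.8% and 11.5% of all genes tested). KDM6B, an H3K27 demethylase, stood at 66.8 and 63.9 CPM in MV4-11 and 9.63 and 9.19 CPM in EOL-1 (2.80 ± 0.07, 1.53 with the EV control). PHC1, a PRC1 subunit, stood at 2.83 and 3.32 CPM in MV4-11 and 16.1 and 15.6 CPM in EOL-1 (-2.36 ± 0.13).

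Cytosolic ribosomal protein genes were lower in MV4-11 in 78 of 79 cases, with a median of -0.52 (-0.42 with the EV control, 76 of 79 lower), and RPS26 was the one called higher. RPS10 stood at 754 and 773 CPM in MV4-11 and 2667 and 2609 CPM in EOL-1 (-1.79 ± 0.02). RPL9 stood at 982 and 989.7 CPM in MV4-11 and 2614 and 2546 CPM in EOL-1 (-1.39 ± 0.02). Only 7 of the 79 reached 2-fold: RPS10, RPS12, RPS18, RPL9, RPS3A, RPL34 and RPSA. The first 6 of these lie on chromosomes 4 and 6, and just 7 of the 79 genes lie on those chromosomes. Proteasome subunits were called lower in 30 of 31 cases (median -0.68). Those lower by at least 2-fold were PSMB1, which lies on chromosome 6 (-1.17 ± 0.03), and PSMB5 (-1.05 ± 0.04). With the EV control 24 proteasome subunits were called lower and 2 higher (median -0.31). Transcripts of the mitochondrial genome went the other way, 12 of 13 called higher and 7 by at least 2-fold, and MT-ND5, a subunit of complex I, stood at 907 and 873 CPM in MV4-11 and 204 and 204 CPM in EOL-1 (2.13 ± 0.02). All shared rows with a mitochondrial (MT-) symbol, which are more than these 13, took 2.48 and 2.43% of counts in MV4-11 and 1.06 and 1.05% in EOL-1. Ribosomal and mitochondrial genes have processed or nuclear copies that can take or lend reads.

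**Figure D3:**
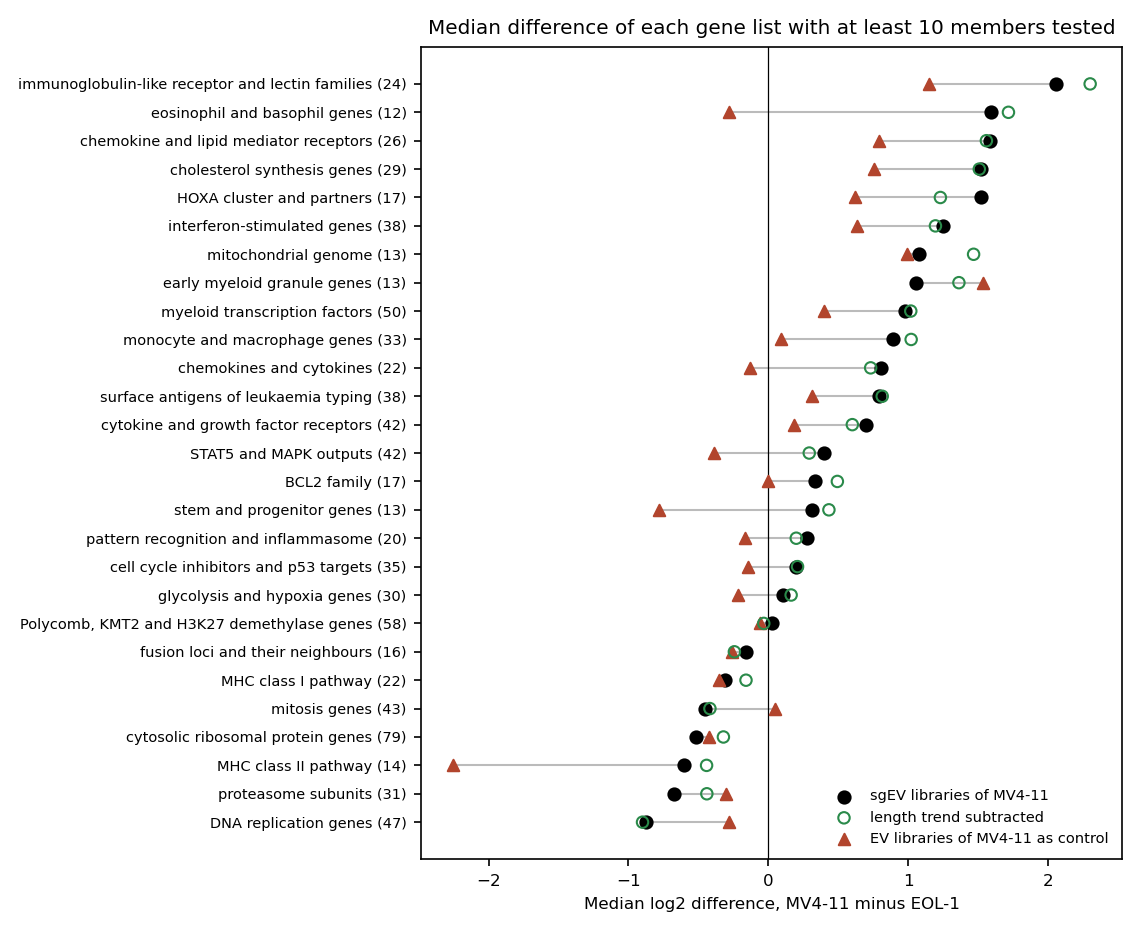
Median log2 difference between MV4-11 and EOL-1 over the tested members of each list with at least 10 of them (number in brackets). Black circles use the sgEV libraries of MV4-11, red triangles the EV libraries, and open green circles the sgEV values after the trend with transcript length was subtracted; the cholesterol, receptor and granule lists stand above 0 and the ribosomal and DNA replication lists below 0 under all 3, while the eosinophil, stem cell and STAT5 lists change side with the control.

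Transcript length moved with the difference and bears on every short-gene list. Over the 10928 tested genes with a coding transcript in the GENCODE v29 annotation (82.4% of those tested), the median difference ran from -0.38 in the eighth with the shortest transcripts to 0.28 in the eighth with the longest. Between the 2 MV4-11 controls, sgEV minus EV, it ran from -0.19 to 0.14, so a slope of the same direction was also seen with the line held. With the trend subtracted, the ribosomal median was -0.32, the proteasome median -0.44, the cholesterol median 1.51 and the DNA replication median -0.90.

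**Figure D4:**
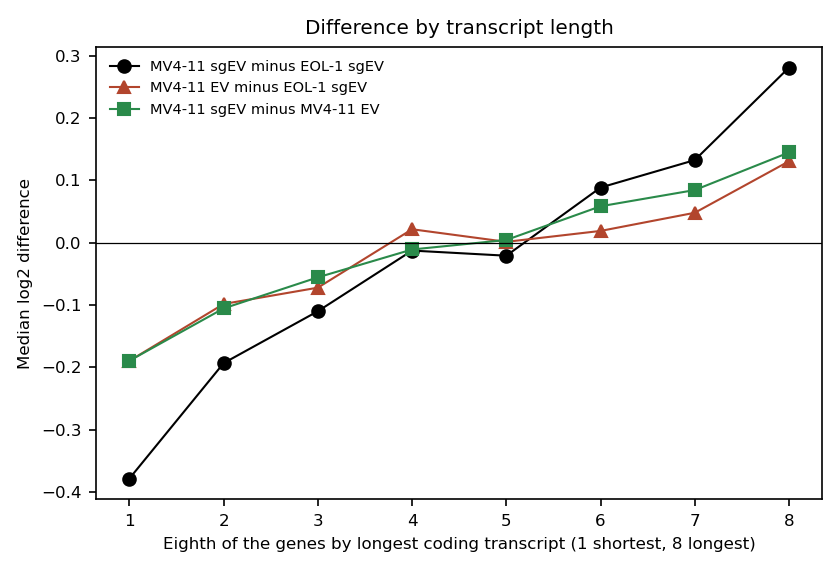
Median log2 difference in 8 equal groups of genes ordered by the length of the longest coding transcript. The black line (MV4-11 sgEV minus EOL-1) climbs from -0.38 to 0.28; the red line (EV as the MV4-11 control) and the green line (sgEV minus EV, both MV4-11) climb less.

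The single largest differences were then taken by rule, 12 in each direction. Highest in MV4-11 was HNMT, the enzyme that inactivates histamine, with 762 and 768 counts in MV4-11 and 0 in both EOL-1 libraries, at least 967-fold higher when 3 counts over both libraries are taken as the limit of detection. PITX1, a homeobox gene of hindlimb and pituitary, had 9659 and 9862 counts against 0 and 5 (12.76 ± 0.08). That SE does not cover the counting error of so few counts in EOL-1, and the same holds for other genes near silent in a line. RXFP1, the relaxin receptor, held 1 count in EOL-1, a ratio of 1380.2 (95% counting interval 247 to 54589), and CX3CR1, the fractalkine receptor, held 2, a ratio of 342 (95% counting interval 94.0 to 2836). TNFRSF14, the herpes virus entry mediator, stood at 27.8 and 25.5 CPM in MV4-11 and 0.118 and 0.0707 CPM in EOL-1 (8.07 ± 0.21). LGR4, an R-spondin receptor, stood at 28.7 and 31.9 CPM in MV4-11 and 0.158 and 0.0707 CPM in EOL-1 (8.0 ± 0.20). These genes were close to silent in both EOL-1 libraries.

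Other genes among these 12 were large with both controls but smaller with EV. SDC2, syndecan 2, stood at 116 and 119 CPM in MV4-11 and 0.316 and 0.424 CPM in EOL-1 (8.27 ± 0.10, 5.85 with the EV control). FCER2, the low-affinity IgE receptor CD23, stood at 127 and 123 CPM in MV4-11 and 0.395 and 0.530 CPM in EOL-1 (8.05 ± 0.10, 5.69 with the EV control). CHI3L1, a chitinase-like protein, stood at 25.3 and 25.6 CPM in MV4-11 and 0.118 and 0.0353 CPM in EOL-1 (8.30 ± 0.23, 6.13 with the EV control). CLEC10A, a macrophage lectin, held 1 count in EOL-1, a ratio of 935 (95% counting interval 167 to 36991), and its log2 difference was 9.46 with sgEV and 4.75 with EV. IGF2BP2 and CD4 complete the 12.

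Lowest in MV4-11 was RHOXF2B, a homeobox gene of the testis, with 0 counts there and 10152 and 11244 counts in EOL-1, at least 3762-fold lower. Its near-identical copy RHOXF2 had 3 and 6 counts against 7334 and 8474 (-9.83 ± 0.09), and the authors' counting could split reads between both. SLFN11, a DNA-damage sensor that blocks stalled replication, held 3 counts in MV4-11 against 3478 and 3741 in EOL-1, a ratio of 1269 (95% counting interval 434 to 6156), and differed by -10.23 with sgEV and -8.16 with EV. PRAME, a cancer-testis antigen, stood at 0.495 and 0.707 CPM in MV4-11 and 139 and 144 CPM in EOL-1 (-7.87 ± 0.10, -9.12 with the EV control). FAT1, an atypical cadherin, stood at 0.212 and 0.495 CPM in MV4-11 and 98.1 and 96.6 CPM in EOL-1 (-8.08 ± 0.13, -7.14 with the EV control). LPHN2, an adhesion receptor, stood at 0.566 and 0.566 CPM in MV4-11 and 78.8 and 79.3 CPM in EOL-1 (-7.11 ± 0.12). NT5C3B, a nucleotidase, stood at 0.919 and 0.778 CPM in MV4-11 and 104 and 103 CPM in EOL-1 (-6.92 ± 0.10, -7.69 with the EV control). S100A8 and S100A9 belong to this set too.

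TP73 and CNTNAP2 were in the set but less extreme with the other control. TP73, the p53 relative p73, held 1 count in MV4-11, a ratio of 442 (95% counting interval 79.1 to 17479), and its log2 difference was -8.56 with sgEV and -2.90 with EV. CNTNAP2, a neuronal adhesion protein, held 3 counts, a ratio of 191 (95% counting interval 65.0 to 926), and differed by -7.49 with sgEV and -2.95 with EV.

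Some genes had a row in 1 table only, 1305 in that of MV4-11 and 1311 in that of EOL-1; most of these were low, and why a row is missing is not stated, so no fold is given. After ELANE, the highest in the MV4-11 table were EEF1A2, a tissue-restricted elongation factor (2648 and 2545 counts), ALDH1L2, a mitochondrial folate enzyme (2148 and 2003), STOM, stomatin (1688 and 1669), KCNE5 (1438 and 1516), BEX1 (1417 and 1454), CDKN2A (1392 and 1412) and MTAP (1098 and 1090). In the EV libraries these genes were counted as well, from 376 and 307 counts for ALDH1L2 to 5792 and 5719 for ELANE. Highest in the EOL-1 table were PXDN, a peroxidase of basement membrane (4052 and 4453 counts), KLHL4 (3388 and 3814), S1PR4, CA8 (2571 and 2975), MYO18B (2111 and 2393), PDGFRA, GPR27 (1385 and 1602) and ZNF704 (1405 and 1546).

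CDKN2A and MTAP belong to 1 stretch of neighbours. There, CDKN2A, which encodes the cell cycle inhibitor p16 and the p53 activator ARF, MTAP, a methionine salvage enzyme, KLHL9 (599 and 549 counts), CDKN2B, the inhibitor p15 (112 and 103), and PTPLAD2 (37 and 46) had rows in the MV4-11 table only. They are consecutive in the order of protein-coding genes with a row in either table. The next genes on each side had rows in both tables: FOCAD with 616 and 611 counts in MV4-11 and 1608 and 1858 in EOL-1, and TUSC1 with 235 and 270 against 96 and 122. Copy number was not measured in these files.

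Position along the chromosomes was described last, with the chromosome and the order of each gene taken by symbol from GENCODE v29. Of 10902 protein-coding genes with a place, those on chromosome 6 had a median difference of -0.64 (567 genes, 74.8% of them lower in MV4-11), and those on chromosome 4 of -0.59 (365 genes, 73.4% lower). The other 21 chromosomes had medians from -0.11 on chromosome 13 to 0.24 on chromosome 9, and 49.1% of their genes were lower. With the EV control the medians of chromosomes 6 and 4 were -0.67 and -0.61, with the length trend subtracted -0.65 and -0.61, and between the 2 MV4-11 controls -0.02 and -0.03. No test was made of these medians, and the look by chromosome was added after the neighbour runs had been seen.

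The shift was spread along both chromosomes rather than carried by a few genes. On chromosome 4, the median of 51 consecutive genes stayed at or below -0.5 over 252 genes from ACOX3 to TMEM154, of which 191 were lower in MV4-11. Chromosome 6 had 2 such stretches, of 233 genes from ZSCAN12 to PTP4A1 (median -0.91) and of 165 genes from EYS to STXBP5 (median -0.73), and the first holds the MHC. A stretch of 92 genes on chromosome 9, from CBWD5 to MSANTD3, ran the other way with a median of 0.86 (0.97 with the EV control), 81 of its genes being higher in MV4-11. A shorter one of 43 genes on chromosome 19, from PPP1R37 to NAPA, had a median of 0.66 (0.48). No other stretch of at least 25 genes passed 0.5 in either direction.

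**Figure D5:**
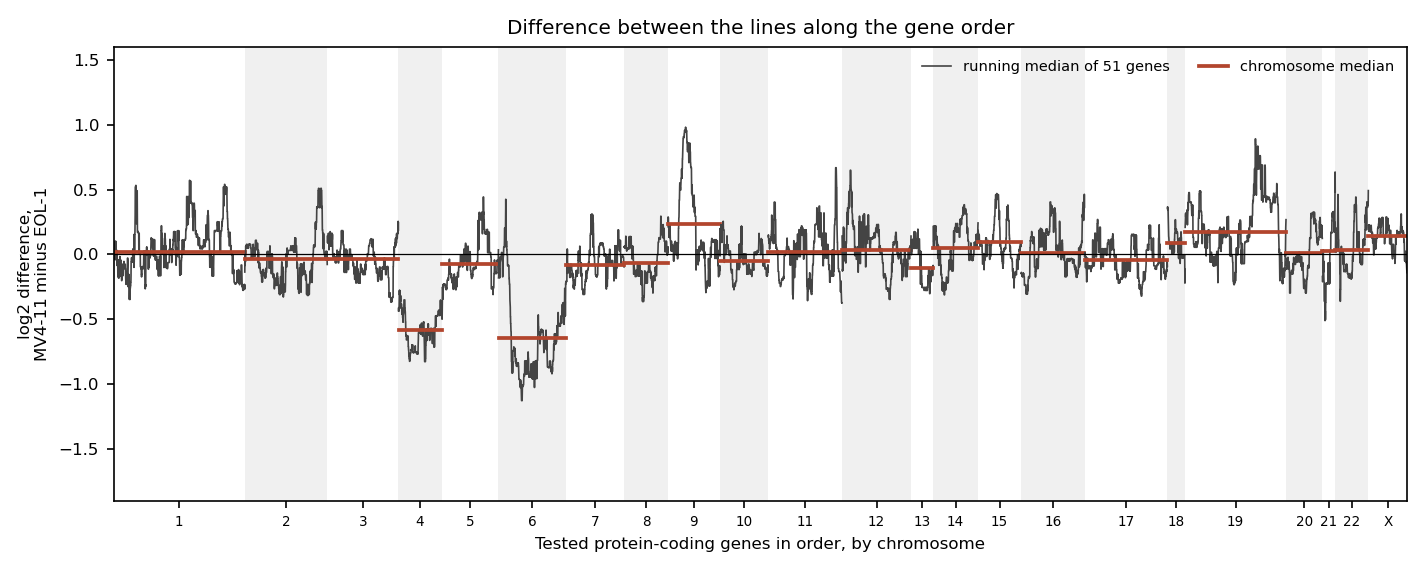
Log2 difference between MV4-11 and EOL-1 along the order of tested protein-coding genes, chromosome by chromosome; the grey line is the median of 51 consecutive genes and the red bars are chromosome medians. Chromosomes 4 and 6 lie below 0 along nearly their whole length, with medians of -0.59 and -0.64, and a stretch of chromosome 9 rises to 0.98.

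Among runs of 15 consecutive genes, the 3 lowest sit on the same ground. All 3 lowest lie on chromosome 6: FYN to CEP85L (median -1.71, 14 of 15 lower), NOTCH4 to HSD17B8 (-1.28, 14 lower) and POLR1C to SLC35B2 (-1.28, 12 lower). The first holds MARCKS, a membrane substrate of protein kinase C, at 0.283 and 0 CPM in MV4-11 and 8.21 and 7.46 CPM in EOL-1 (-5.73 ± 0.37, -4.78 with the EV control). FYN, a Src-family kinase, stood at 6.86 and 6.57 CPM in MV4-11 and 33.9 and 32.6 CPM in EOL-1 (-2.30 ± 0.09, -5.25 with the EV control). The third holds SLC29A1, the nucleoside transporter ENT1, at 36.6 and 36.9 CPM in MV4-11 and 234 and 231 CPM in EOL-1 (-2.66 ± 0.04, -2.07 with the EV control).

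The 3 highest runs were on other chromosomes. GPR89B to HIST2H2BE (median 1.88, 11 of 15 genes higher) holds FCGR1A and a histone cluster whose members are near-identical copies. HECTD4 to MAP1LC3B2 (1.45, 9 higher) holds OAS1 and OAS2. TMEM216 to AHNAK (1.35, only 8 higher) holds FADS1, FADS2 and DAGLA. DAGLA, an endocannabinoid synthase, stood at 7.35 and 5.80 CPM in MV4-11 and 0.395 and 0.283 CPM in EOL-1 (4.27 ± 0.30). With the EV control these 3 medians were 1.52, 0.92 and 0.44, against -1.42, -1.27 and -1.21 for the 3 lowest.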

How the data were processed

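RNA-seq of 2 human leukaemia lines was read from 3 deposited tables. Per the file headers each library has a raw and a normalised column, and only raw columns were used: values per gene that are in part not whole. The authors deposited them as raw estimated counts, per the file headers. RSEM, DESeq and hg19 are among the tools and builds that the submitters' processing notes list. Tool versions, annotation, filters and strand use: not given in the sources used here. Column names were matched to sample titles by table, target and replicate number.

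Counts were rounded, 56 spike-in rows of the MV4-11 table were dropped, and the 13720 rows present in both tables were kept (17 rows that bear a calendar date were tested and not named). Rows passed filterByExpr of edgeR 4.0.16, libraries were scaled by TMM, and glmQLFit (robust) with glmQLFTest compared MV4-11 with EOL-1, two-sided, with Benjamini-Hochberg adjustment. The fit was tested on simulated data. Replicates differed by more than sampling noise in each line (chi-square per degree of freedom 1.47 and 1.75), so none was counted as a copy. At these depths ratios on 1 to 3 counts carry a 95% exact counting interval, genes at 0 in a line are bounded against 3 counts over the group, and both cover counting error only.

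The 33 gene lists and the members were chosen with earlier results of these data known. Lists are described by counts and medians, with no test. Named are EZH2 and MYC, defining list members, the 12 largest differences per direction with at least 10 CPM in the higher line and no overlap, up to 6 called members per list by size of difference, the 8 highest rows of 1 table, and the ends and 2 largest genes of 6 neighbour runs of 15 genes. Not every gene that meets the rule is reported here, and these were named after their values had been seen: LNX1, SCFD2, SRD5A3, CLOCK, EXOC1, PRG2, CCR3, HOXA3, HOXA5, HOXA6, HOXA7, IGF2BP3, HLA-DMB, HLA-DPB1, HLA-DQA1, HLA-F, IFI30, RFX5, RFXANK, IFIT3, IFIH1, PIM1, SOCS1, CISH, PMVK, RPS26, RPSA, KLHL9, CDKN2B, PTPLAD2, FOCAD, TUSC1 and the ends of the long runs. Gene order, chromosome and coding transcript length came by symbol from GENCODE v29 (GRCh38), whose build differs from hg19, so no positions of genes are given. The alternatives were other scalings (DESeq2 size factors, upper quartile, library size), DESeq2 1.42.0, a test against 2-fold, other filters, 10 libraries in 1 fit, the EV control, thinning of EOL-1, no robust step, a replicate block and each library left out.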

Additional observations from a re-analysis of the deposited data

How the results depend on the processing

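The counts of genes higher and lower in MV4-11 (5206 and 5320) moved by more than 1.5 times under 1 alternative: tested against a 2-fold change (glmTreat of edgeR), 1791 and 1072 genes were called. Under DESeq2 they were 4456 and 4481. Library size alone as the scaling moved the median of all genes by 0.19 and the counts to 6266 and 4242 (59.6% of calls higher, against 49.5%). The counts at 2-fold (2368 and 1532) were 1748 and 1280 with the EV control. Leaving out each library gave 4846 to 4887 higher and 5029 to 5099 lower, the lone library being assumed to vary like the other line. Equal replicate numbers did not pair the libraries (correlation of deviations 0.05 over 10983 genes), and the fit with the replicate block called 5151 higher and 5297 lower.

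With the EV control in place of sgEV, list medians changed sign for eosinophil and basophil genes (-0.28), stem and progenitor genes (-0.78), STAT5 and MAPK outputs (-0.39), chemokines and cytokines (-0.13), pattern recognition (-0.17), cell cycle inhibitors (-0.15), the BCL2 family (-0.00078), Polycomb genes (-0.062), mitosis genes (0.049), glycolysis (-0.22) and the other HOX clusters (-0.21). The last, with 3 genes, ran from -0.10 to 0.62 with 1 library left out, and was -0.10 without MV4-11 sgEV replicate 1. The median of the fusion loci turned with library size alone (0.030) and with genes of chromosomes 4 and 6 left out (0.41), and that of Polycomb genes with the length trend subtracted (-0.033); the last 2 alternatives were chosen after seeing the data. The same control turned 13 of 213 named genes: BBC3 (-0.41), BNIP3 (-0.20), CD33 (-0.090), CD68 (-0.72), CDKN1A (-0.28), CEBPA (-0.090), ENO2 (-0.075), FIP1L1 (0.017), GATA2 (-2.01), HBEGF (-0.18), ITGAM (-0.69), PTPRC (-0.43) and TCF4 (-0.066). AFF1 turned with library size alone (0.10). The causes were not tested. With 2 libraries per line, genes near the floor of 3 counts have no usable fold.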
